A study of Mus musculus with 24 samples.

Results

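The proteasome is the protease complex that degrades proteins marked with ubiquitin, and its subunit genes were followed here in lung epithelial cells grown with nylon fibers. Members were all genes whose symbol is Psma, Psmb, Psmc, Psmd, Psme or Psmg followed by a digit, without the inducible core genes Psmb8 and Psmb9. This rule found 45 of the 14557 gene symbols in the epithelial count table, and all 45 passed the filter on low counts. They comprise 44 proteasome genes and Psmc3ip, a meiotic recombination factor that shares only the letters of the symbol. Of the core, 7 alpha ring and 9 beta ring genes were found. Of the regulatory cap, there were 6 base ATPases, 3 further base genes and 8 lid genes. To these came 5 activators and 6 assembly chaperones. Psma8, Psmd10 and Psme3ip1 had no listed transcript and were not analysed here.

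The core particle is a stack of rings in which outer alpha rings gate the chamber and inner beta rings carry the proteolytic sites. A regulatory cap binds the alpha ring: the lid removes ubiquitin chains and the ATPases of the base unfold the substrate and push it inward. Other activators can take the place of the cap, and dedicated chaperones assemble the rings and the base but are absent from the finished particle. In many cell types the transcription factor Nfe2l1 raises proteasome genes as a group when proteasome activity falls short.

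The study mixed nylon 6,6 fibers of 12 by 31 micrometers into lung organoid cultures. Each well of a 6-well plate held 200000 EpCAM-positive primary lung cells of wild-type female C57BL6 mice and 200000 CCL206 cells, a fibroblast line from a male ddY mouse, in Matrigel. Wells had no fibers (control), 12000 or 30000 fibers, equated in the labels with 2000 and 5000 fibers in smaller wells, and all groups contained the fibroblast line. After 7 days the cells were parted with beads against EpCAM, and each group of the epithelial fraction has 4 libraries, 1 per mouse, numbered mouse 1 to 4. Library values below are given in that order. Values are CPM (counts per 1e6 counts) of the transcript with the highest mean count of each gene, scaled by the TMM method.

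The 4 libraries at 30000 fibers stood apart from the other 8 before any gene was tested. They held 6767842 to 9234052 counts over all transcripts, against 21222034 to 28232472 in controls and 20103389 to 31119155 at 12000 fibers. Mitochondrial genes took 14.3% to 16.3% of the counts on the chosen transcripts, against 5.20% to 7.77% in controls and 5.33% to 6.91% at 12000 fibers. The epithelial label was checked against 12 epithelial markers, all of which were measured. Epcam had 650.3 ± 64.5 CPM in controls, 484 ± 14.9 at 12000 and 239 ± 36.8 at 30000 fibers (SD, n = 4). Their summed level ran from 6886 to 7970 CPM in controls, from 7020 to 7861 at 12000 and from 4000 to 4718 at 30000 fibers, with 3 higher and 7 lower at 12000 and 1 higher and 10 lower at 30000 fibers. Of 20 fibroblast markers 16 were tested (Thy1 and Tcf21 had no listed transcript, Postn and Fap did not pass the filter). Their summed level was 8674 to 13503 CPM in controls, 15573 to 16992 at 12000 and 14506 to 17552 at 30000 fibers, with 14 higher and 1 lower at 12000 and 15 higher and 1 lower at 30000. Fn1 made up most of that sum, and the other 15 markers summed to 1080 to 2461, 2912 to 3295 and 4300 to 5443 CPM in the 3 groups, without overlap. Immune markers (5 of 10 tested, without Ptprc, Cd3e, Itgam, Fcer1g and Tyrobp, which had no listed transcript) summed to 194 to 268, 205 to 318 and 345 to 523 CPM. They did not move together, with 1 higher and 1 lower at 12000 and 3 higher and 1 lower at 30000 fibers. Mean Lyz2 was 108, 192 and 345 CPM in the 3 groups. Mean Cd14 was 97.3, 38.7 and 48.8 CPM, and it was the marker called lower at both fiber numbers. The 3 endothelial markers tested of 6 summed to at most 5.34 CPM in any library (Cdh5, Tek and Cldn5 had no listed transcript). Of 4 mesothelial markers only Msln had a listed transcript, and it was lower with either fiber number. The part of these shifts in the proteasome results was not tested, and in such bulk fractions fewer cells of a type and less RNA per cell cannot be told apart.

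The promoters of 4 members are shown first because these genes carry the main changes: Psma3 and Psmb3 had the largest rises at 30000 fibers, Psmb5 encodes a catalytic subunit that rose there, and Psmd8 rose at both fiber numbers. Each run of 300 bases reaches from 250 bases before to 50 bases after the start of the gene, 5′ to 3′ on the gene's own strand, from RefSeq (GRCm38.p6). Capitals mark matches on either strand to CCAAT, the CCAAT box (ATTGG where it lies on the other strand), or to TGACNNNGC, the core of the antioxidant response element, the kind of element that Nfe2l1 binds. The runs lie at chr12:70974373-70974672 (plus strand), chr11:97703184-97703483 (plus), chr14:54617946-54618245 (minus) and chr7:29180624-29180923 (minus).
Psma3: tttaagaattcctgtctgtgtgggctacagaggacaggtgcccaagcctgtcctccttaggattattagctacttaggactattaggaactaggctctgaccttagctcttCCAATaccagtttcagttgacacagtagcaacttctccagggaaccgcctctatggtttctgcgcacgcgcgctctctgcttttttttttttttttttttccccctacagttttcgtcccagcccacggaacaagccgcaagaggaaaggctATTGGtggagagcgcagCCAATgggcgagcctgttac
Psmb3: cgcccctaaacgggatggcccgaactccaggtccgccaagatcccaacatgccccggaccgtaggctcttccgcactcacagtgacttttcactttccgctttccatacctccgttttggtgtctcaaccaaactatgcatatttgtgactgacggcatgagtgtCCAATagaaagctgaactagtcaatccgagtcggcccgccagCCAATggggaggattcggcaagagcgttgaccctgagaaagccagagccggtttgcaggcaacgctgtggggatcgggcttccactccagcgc
Psmb5: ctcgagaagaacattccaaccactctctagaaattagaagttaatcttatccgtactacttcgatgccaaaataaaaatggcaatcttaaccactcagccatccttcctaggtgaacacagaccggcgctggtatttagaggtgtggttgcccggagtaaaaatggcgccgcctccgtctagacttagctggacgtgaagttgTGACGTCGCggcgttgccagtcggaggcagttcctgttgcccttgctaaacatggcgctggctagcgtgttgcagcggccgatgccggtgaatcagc
Psmd8: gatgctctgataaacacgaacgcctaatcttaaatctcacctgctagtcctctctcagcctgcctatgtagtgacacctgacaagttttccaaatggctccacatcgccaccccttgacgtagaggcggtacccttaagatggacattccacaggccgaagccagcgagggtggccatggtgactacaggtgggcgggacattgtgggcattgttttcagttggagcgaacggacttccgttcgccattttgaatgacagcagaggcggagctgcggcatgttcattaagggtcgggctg

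Psma3 held 3 CCAAT matches, 1 of them 139 bases before its start and the others 13 and 30 bases after it. Psmb3 held 2, at 43 and 85 bases before its start. Psmb5 held 1 match to the antioxidant response core 47 bases before its start, and Psmd8 held no match to either. RefSeq promoters were found for 38 of the 45 members. The antioxidant response core was present in 6 of these 38 genes (15.8%: Psmb5, Psmb6, Psmc6, Psmd9, Psmd12 and Psme4), while 13.99% of 27025 genes of the promoter table held it. CCAAT was present in 13 of the 38 (34.2%), against 41.1% of all genes. Among the alpha ring genes, 5 of 7 held CCAAT and none held the antioxidant response core. The 2 kinds of match did not overlap in these promoters. A match is a description of the letters and not a site shown to be bound.

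In control epithelium most core and cap genes stood above the chaperones in level per kilobase of transcript, and 34 of the 45 members were at 20 CPM per kilobase or more. The 14 constitutive core genes ran from 6.37 (Psma3) to 74.7 (Psma6) CPM per kilobase with a median of 51.8. The 6 ATPases ran from 42.7 to 66.8, and the 8 lid genes from 33.5 to 105 CPM per kilobase, with Psmd8 the highest of all 45 members and Psme1, a subunit of the interferon-inducible activator ring, next at 96.6. The 6 assembly chaperones lay between 6.70 and 9.69. Psmb10, which replaces Psmb7 in the immunoproteasome, stood at 5.19 CPM per kilobase, and Psmb11, the beta subunit of thymic cortical epithelium, at 0.376. The sources used here do not say how reads were shared among isoforms, so this order carries that limit.

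At 12000 fibers few proteasome genes changed, and 7 of the 8 that rose belong to the cap. Of the 45 members, 8 were higher and 0 lower by the edgeR quasi-likelihood test (adjusted p under 0.05). Over all 13759 genes tested, 18.7% were higher and 19.3% lower, so the share of members that rose (17.8%) was near the background. At an unadjusted p under 0.05, 12 members were higher and 1 was lower (22.8% and 23.5% of all genes), and DESeq2 also called 8 higher and 0 lower. The median log2 change was 0.09 over members, with 34 estimates above 0, and -0.003 over all genes. By role, 4 of 6 ATPases, 1 of 3 other base genes, 2 of 8 lid genes and 1 of 5 activators rose, while none of the 7 alpha ring, 9 beta ring and 6 chaperone genes passed. In the same libraries 14 of 16 fibroblast markers were higher, with the summed levels given above not overlapping the controls, and their part in these rises was not tested.

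Psmd8, the last subunit to join the lid, had the clearest rise at 12000 fibers. Its levels were 192, 231, 218 and 196 CPM in the control libraries, 359, 357, 330.3 and 329.8 at 12000 fibers and 338, 320.3, 340.3 and 311 at 30000 fibers. The control libraries lay below every library with fibers, and the fiber groups overlapped. The log2 change was 0.72 ± 0.07 (SE) at 12000 fibers (edgeR adjusted p = 1.81e-07) and 0.65 ± 0.07 at 30000 (1.04e-07). Between the fiber numbers it was -0.07 ± 0.07 (edgeR adjusted p = 0.389). All 7 tested transcripts of Psmd8 rose in both comparisons with control when each was tested separately. Transcripts of 1 gene may hold the same reads, so these are not independent results.

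The 6 ATPases form the motor ring of the base, and all 6 estimates were above 0 at 12000 fibers. Psmc5 read 56.5, 65.7, 55.5 and 47.3 CPM in controls, 71.5, 76.5, 68.7 and 67.5 at 12000 and 66.6, 86.8, 73.005 and 70.8 at 30000 fibers. Each library at 12000 fibers was above every control, with a log2 change of 0.34 ± 0.09 (edgeR adjusted p = 0.00562). Psmc2 read 80.6, 86.3, 85.1 and 73.5 CPM in controls and 99.6, 92.1, 99.3 and 90.03 at 12000 fibers, again without overlap, for a log2 change of 0.23 ± 0.07 (0.00899, edgeR adjusted p). Psmc1 rose by 0.22 ± 0.06 (edgeR adjusted p = 0.007), from 106, 113, 106 and 100.2 to 127, 123, 126 and 120.0 CPM. Psmc6 was near the threshold at 0.15 ± 0.06 (edgeR adjusted p = 0.0491), and its call was lost with the mouse as a block (the block gives an adjusted p of 0.0503). Psmc3 (0.21 ± 0.08) and Psmc4 (0.11 ± 0.08) did not pass, but Psmc3 passed with the block, as did Psmb3, Psmd4 and Psmd6.

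The scaffold gene Psmd1, a large base subunit that anchors the ubiquitin receptor Adrm1, rose from 161 ± 10.99 to 188 ± 10.8 CPM (SD, n = 4; log2 0.22 ± 0.07, edgeR adjusted p = 0.0185). Psmd4, a ubiquitin receptor, had a log2 change of 0.16 ± 0.07 (edgeR adjusted p = 0.0759). In the lid, Psmd11 rose from 99.02 ± 3.22 to 115 ± 2.74 CPM (log2 0.22 ± 0.07, edgeR adjusted p = 0.0124), with no overlap between groups. The lid deubiquitinase Psmd14 had 0.11 ± 0.07 (edgeR adjusted p = 0.204). Psme2b, a gene of 1 listed transcript that resembles Psme2 and overlaps Gm12185, rose from 2.25 ± 0.778 to 3.81 ± 0.642 CPM (log2 0.75 ± 0.25, edgeR adjusted p = 0.0218). The groups overlapped, and the value is uncertain because reads of near-identical copies may be split between them. Of all 45 members, 6 showed no overlap between the groups in the higher direction, all of them among the 8 rises. In the lower direction 1 did, Psma1, which did not pass. Over all genes 17.6% and 18.7% showed this. Without the control library of mouse 4, or without the 12000-fiber library of mouse 3, 5 members were higher, Psmc6, Psmd1 and Psme2b being lost in either case.

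**Figure D1:**
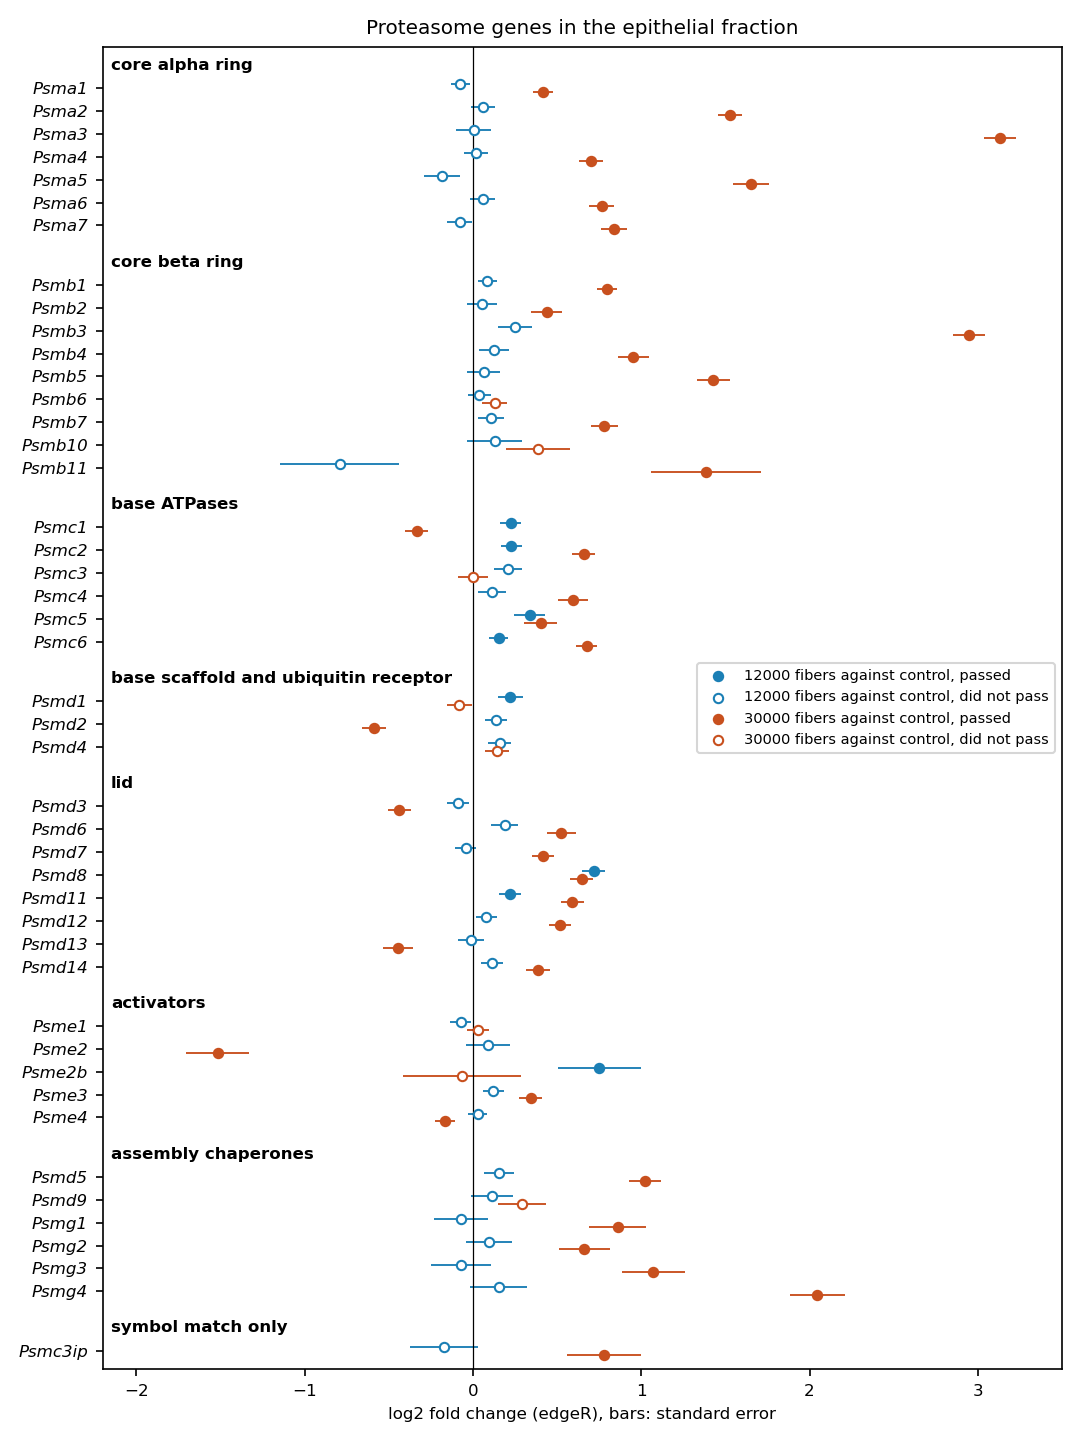
Log2 fold change of each of the 45 members (horizontal axis, edgeR, bars are standard errors) against control at 12000 fibers (blue) and 30000 fibers (orange), 4 libraries per group, with members grouped by role; filled points passed an adjusted p of 0.05. The alpha ring and chaperone points at 12000 fibers lie near 0 and are open, and at 30000 fibers those of all 7 alpha ring genes lie to the right and are filled.

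At 30000 fibers most members were higher than in controls, among them 14 of 16 core genes and 5 of 6 chaperones, while 6 genes of the base, lid and activators were lower. Of the 45 members, 31 were higher and 6 lower (edgeR, adjusted p under 0.05), against 32.2% of all genes higher and 33.4% lower. The median log2 change was 0.59 over members and -0.03 over all genes. The members' summed level was 3183 ± 155 CPM in controls, 3509.9 ± 107 at 12000 and 4488 ± 132 at 30000 fibers (SD, n = 4). The groups did not overlap for 29 of the members in the higher direction, which 28.7% of all genes showed. In the lower direction this held for 5 members, against 29.4% of all genes. These 4 libraries are the ones with the high mitochondrial share and the low depth given above, and the fibers and those properties cannot be told apart here. Fold changes in the next paragraphs are those of the most abundant transcript. Calls against control that changed with all transcripts of a gene summed, or with the trend of level on transcript length taken out, are given beside them.

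All 7 alpha ring genes rose. Psma3 read 22.5, 18.3, 15.9 and 15.9 CPM in controls, 18.5, 17.3, 17.99 and 18.9 at 12000 and 176, 153, 153 and 154 at 30000 fibers. The first 2 groups overlapped and the third stood far above both, with a log2 change of 3.13 ± 0.10 against control (edgeR adjusted p = 5.13e-16) and 0.0042 ± 0.10 at 12000 fibers (0.982). In controls Psma3 was the lowest alpha ring gene per kilobase at 6.37 CPM, and at 30000 fibers it stood at 55.9. Psma5 rose from 39.7, 35.7, 27.9 and 28.8 to 101, 95.6, 101 and 118 CPM, again without overlap (log2 1.65 ± 0.10, edgeR adjusted p = 5.39e-11). Psma2 followed with 1.53 ± 0.07, and Psma1, Psma4, Psma6 and Psma7 rose by 0.41 to 0.84 on the log2 scale. The summed alpha ring level was 397 to 489 CPM in controls, 423 to 443 at 12000 and 940.1 to 988 at 30000 fibers. Summing all transcripts left 5 of 7, Psma1 (log2 0.014) and Psma6 (0.075) being lost, and with the length trend taken out Psma4 and Psma6 were lost and Psma1 was called lower (-0.16).

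In the beta ring 7 of 9 genes rose and none fell. Psmb3, a subunit without a catalytic site, read 19.8, 19.6, 21.2 and 17.1 CPM in controls, 27.2, 22.6, 22.2 and 19.3 at 12000 and 145, 164, 150.1 and 139 at 30000 fibers. Its log2 change at 30000 fibers was 2.95 ± 0.10 (edgeR adjusted p = 1.42e-15), and the 30000-fiber libraries lay far above all others. Of the 3 constitutive catalytic genes, Psmb5 and Psmb7 rose and Psmb6 did not pass, a contrast that depends on the transcript counted: with all transcripts summed all 3 were called higher. Psmb5, of the chymotrypsin-like site, read 32.1, 34.1, 25.02 and 27.4 CPM in controls, 32.7, 34.1, 29.8 and 27.5 at 12000 and 82.7, 86.1, 76.8 and 75.2 at 30000 fibers (log2 1.43 ± 0.10 against control, edgeR adjusted p = 1.98e-10). Psmb7, of the trypsin-like site, rose from 56.3 ± 4.98 to 96.8 ± 4.20 CPM (log2 0.78 ± 0.08, edgeR adjusted p = 6.38e-08).

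Psmb6, of the caspase-like site, read 56.8, 58.5, 53.03 and 49.5 CPM in controls and 58.8, 57.9, 60.6 and 60.8 at 30000 fibers, and these ranges overlapped (log2 0.13 ± 0.07, edgeR adjusted p = 0.136). With all transcripts summed Psmb6 was called higher (0.62, edgeR adjusted p = 4.32e-06), and with the length trend taken out it was called lower (-0.99, 3.37e-10). The annotation names 2 processed pseudogenes of Psmb6 and 1 each of Psmb5 and Psmb7, which may share reads with these genes. Psmb10, the inducible counterpart of Psmb7, had 0.39 ± 0.19 (0.0796, edgeR adjusted p) and overlaps the antisense gene Gm16156 over its whole length. Psmb11 rose from 1.598 ± 0.594 to 4.06 ± 1.44 CPM (log2 1.38 ± 0.33, edgeR adjusted p = 0.000984). All 9 beta ring genes passed as higher with transcripts summed. With the length trend taken out Psmb7 was lost (0.17) and Psmb2 was called lower (-0.58). Psmb3 (1.76) and Psmb5 (0.47) were then still called higher, with smaller changes. The summed beta ring level was 369.7 to 420.3, 399 to 453 and 748 to 854 CPM in the 3 groups.

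**Figure D2:**
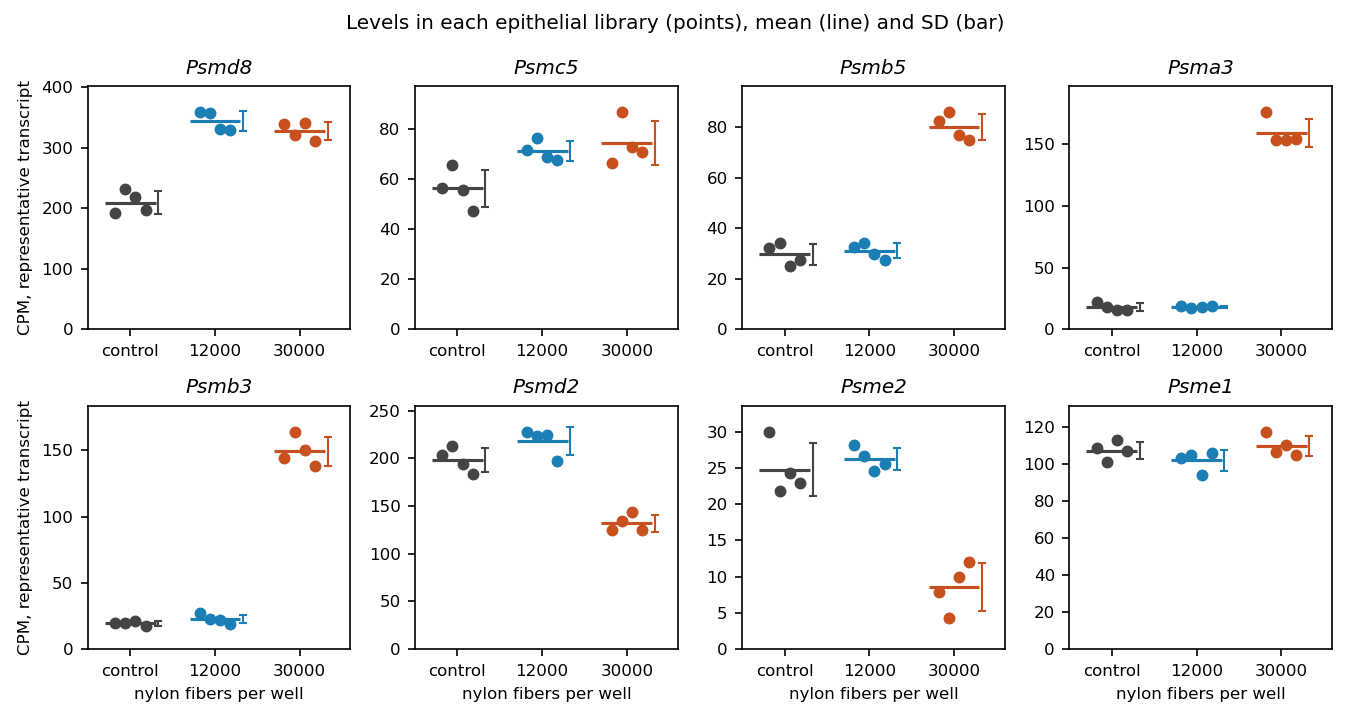
CPM of 8 members (vertical axes start at 0) in each of the 12 epithelial libraries by fibers per well; points are libraries in mouse order, lines are means and bars are SDs of 4. Psmd8 and Psmc5 are higher at 12000 fibers, Psma3, Psmb3 and Psmb5 only separate from control at 30000 fibers, Psmd2 and Psme2 are lower there, and Psme1 overlaps throughout.

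The base split at 30000 fibers. Psmc6, Psmc2, Psmc4 and Psmc5 rose, led by Psmc6 from 117, 116, 109 and 104 to 186, 169.7, 174 and 182 CPM (log2 0.68 ± 0.06, edgeR adjusted p = 9.5e-09) and Psmc2 at 0.66 ± 0.07 (6.75e-08). Psmc1 went the other way and read 85.0, 93.1, 82.1 and 77.2 CPM, all below its control libraries (log2 -0.33 ± 0.07, edgeR adjusted p = 0.000228), although it had risen at 12000 fibers. The difference between the fiber numbers was itself past the threshold for Psmc1 (-0.56 ± 0.07, edgeR adjusted p = 8.25e-07). Tested among all transcripts, on a scale where the median of all genes was 0.31, the same Psmc1 transcript had 0.0050 against control. Psmc1 was still called lower with all transcripts summed (-0.48) and with the length trend taken out (-0.62). Psmc3 had -0.0015 ± 0.09 against control. With the length trend taken out Psmc3 was called lower (-0.26, edgeR adjusted p = 0.0119) and the call of Psmc5 was lost (-0.067).

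Psmd2, the other large scaffold of the base, read 203, 213, 194 and 184 CPM in controls, 228, 223, 225 and 197 at 12000 and 125, 134, 144 and 125 at 30000 fibers. The 30000-fiber libraries lay below all others, with a log2 change of -0.59 ± 0.07 (edgeR adjusted p = 5.65e-07). Psmd1 returned to 152 ± 15.2 CPM, -0.31 ± 0.08 against 12000 fibers on the log2 scale (edgeR adjusted p = 0.00183) and -0.08 ± 0.08 against control (0.348). With all transcripts summed Psmd1 was instead called higher than control (0.30, edgeR adjusted p = 0.00401) and the difference from 12000 fibers was 0.069. The ubiquitin receptor Psmd4 had 0.14 ± 0.07 against control (edgeR adjusted p = 0.092) and passed with the mouse as a block (0.14, with an adjusted p of 0.0496). With all transcripts summed Psmd4 was called lower (-0.18), as it was with the length trend taken out (-0.31).

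In the lid 6 genes rose and 2 fell at 30000 fibers. Psmd8 and Psmd11 had the largest rises, Psmd11 from 99.02 ± 3.22 to 149 ± 14.7 CPM (log2 0.59 ± 0.07, edgeR adjusted p = 2.87e-07). Psmd6, Psmd7, Psmd12 and Psmd14 rose by 0.38 to 0.53, with the deubiquitinase Psmd14 at 0.38 ± 0.07 (0.000101, edgeR adjusted p). Psmd13 fell from 68.5, 72.8, 62.9 and 61.9 to 45.4, 54.3, 49.7 and 45.8 CPM (log2 -0.45 ± 0.09, edgeR adjusted p = 0.000226). Psmd3 fell from 149.9, 155, 138 and 138 to 107, 119.6, 98.6 and 105 CPM (log2 -0.44 ± 0.07, edgeR adjusted p = 1.89e-05). Neither of these falls overlapped the controls. Both calls were lost when every transcript was tested separately, on a scale where the median of all genes was 0.31. With all transcripts summed 4 lid genes rose and 3 fell, Psmd6 being called lower (-0.27) and Psmd14 not passing (-0.16), and with the length trend taken out Psmd6, Psmd7 and Psmd14 were lost.

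Of 5 activators 1 rose and 2 fell at 30000 fibers. Psme1 and Psme2 together form the interferon-inducible activator ring, and of the pair Psme2 fell and Psme1 did not pass. Psme1 read 109, 101, 113 and 107 CPM in controls and 118, 107, 110.4 and 105 at 30000 fibers (log2 0.03 ± 0.07, edgeR adjusted p = 0.677). Psme2 read 29.98, 21.8, 24.4 and 22.97 CPM in controls, 28.2, 26.6, 24.5 and 25.6 at 12000 and 7.84, 4.23, 10.01 and 12.03 at 30000 fibers, where every library lay below all others (log2 -1.52 ± 0.19, edgeR adjusted p = 8.57e-07). The chosen Psme2 transcript is annotated as a retained intron, and of 9 tested transcripts of the gene 7 fell and none rose. These transcripts may hold the same reads and are not independent. The nuclear activator Psme3 rose from 99.8 ± 8.47 to 127 ± 4.52 CPM (log2 0.34 ± 0.07, edgeR adjusted p = 0.000177). Psme4, a large single-chain activator, fell by a small amount (log2 -0.16 ± 0.06, edgeR adjusted p = 0.0209), a call lost without the control library of mouse 3 or 4 or the 30000-fiber library of mouse 4, and with all transcripts summed. When every transcript was tested separately it was called higher (0.17), on a scale where the median of all genes was 0.31. Psme1 was called lower with all transcripts summed (-0.54) or the length trend taken out (-0.64). With that trend taken out the call of Psme4 was lost (0.032) and Psme2b was called lower (-1.12).

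Of the 6 assembly chaperones 5 rose at 30000 fibers and none had changed at 12000. Psmg4, which works with Psmg3 on the alpha ring, read 4.40, 4.28, 4.69 and 3.64 CPM in controls and 15.7, 20.1, 19.1 and 15.03 at 30000 fibers (log2 2.05 ± 0.16, edgeR adjusted p = 1.58e-09). Psmg3 rose from 5.92 ± 0.828 to 12.6 ± 2.61 CPM (log2 1.07 ± 0.19, edgeR adjusted p = 4.58e-05). The base chaperone Psmd5 rose by 1.02 ± 0.09, the alpha ring chaperones Psmg1 and Psmg2 rose by 0.86 ± 0.17 and 0.66 ± 0.15, and Psmd9 had 0.29 ± 0.14 (edgeR adjusted p = 0.079), a value that passed once mouse entered the fit. Summing all transcripts left 4, Psmg1 being lost (0.21, edgeR adjusted p = 0.315), and put Psmd9 at -0.006. With the length trend taken out Psmg1, Psmg2 and Psmg3 were lost. Psmg4 then had 0.42 (edgeR adjusted p = 0.0281), and its difference from 12000 fibers did not pass (0.35). Psmc3ip, no proteasome gene, rose from 4.76 ± 0.906 to 8.17 ± 1.13 CPM, a call lost with the length trend taken out (0.29).

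Between the fiber numbers, 29 members were higher at 30000 and 8 lower (edgeR), where 28.3% of all genes were higher and 27.1% lower. In the higher direction 28 members showed no overlap between these groups, against 26.7% of all genes, and in the lower direction 6 did, against 25.6%. This comparison shares its libraries with both others. All 7 alpha ring genes, 7 of 9 beta ring and 5 of 6 chaperone genes were higher, and Psmd1, Psmd2 and Psmc1 were among those lower.

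Isoforms of the same gene often went apart at 30000 fibers. Of 237 member transcripts tested separately, 108 were higher and 87 lower there (edgeR; 30.2% and 33.3% of all 67490 transcripts), and 23 of 43 members with more than 1 tested transcript had calls in both directions, as did 28.7% of 11250 such genes in all. At 12000 fibers 31 were higher and 2 lower (14.8% of all transcripts in each direction), and no member had calls in both directions (0.0889% of all such genes). Transcripts were then split by whether they end within 100 bases of the most downstream end listed for the gene, for the 38 members that have both kinds. Of 68 downstream-ending transcripts 50 rose and 12 fell at 30000 fibers, with a median log2 change of 0.80, while over all genes 50.9% of such transcripts rose and 19.5% fell. Of 156 ending further upstream 47 rose and 75 fell, with a median of -0.42, and over all genes 18.9% rose and 41.6% fell. Over 10107 genes with both kinds the medians were 0.29 and -0.34. At 12000 fibers the members' medians were 0.10 and 0.09. Transcripts of 1 gene may hold the same reads, so these counts are not of independent values.

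Psmb3 shows the split within 1 gene, on the scale of CPM over all transcripts. Its 578-base transcript, which ends at the downstream end, rose from 3.56 ± 0.378 to 61.6 ± 4.04 CPM (SD, n = 4), and its 1509-base transcript, which ends 5436 bases upstream, stood at 3.89 ± 0.150 and 3.57 ± 0.526 CPM (log2 changes 4.11 ± 0.10 and -0.11 ± 0.16). For Psmb4 the 1183-base coding transcript rose by 1.29 ± 0.09 on the log2 scale and a 666-base transcript that ends 805 bases upstream had -0.89 ± 0.11. In Psmd6 the 1387-base transcript rose (0.86 ± 0.09) and the other 5 fell. The median log2 ratio of downstream-ending to other counts over the 38 members was -0.24 to -0.14 in control libraries, -0.21 to -0.17 at 12000 and 0.52 to 0.71 at 30000 fibers. The ratio of a single gene lay above every control in all 4 libraries of 30000 fibers for 30 of the 38 members and below for 6 (Psma2, Psma3, Psmb1, Psmc3, Psmd1 and Psmd12), where 62.7% of all 10107 genes were higher and 6.83% lower. At 12000 fibers 1 of 38 was higher and 0 lower, against 2.39% and 6.07% of all genes. The part of this shift in the gene results at 30000 fibers was not tested.

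**Figure D3:**
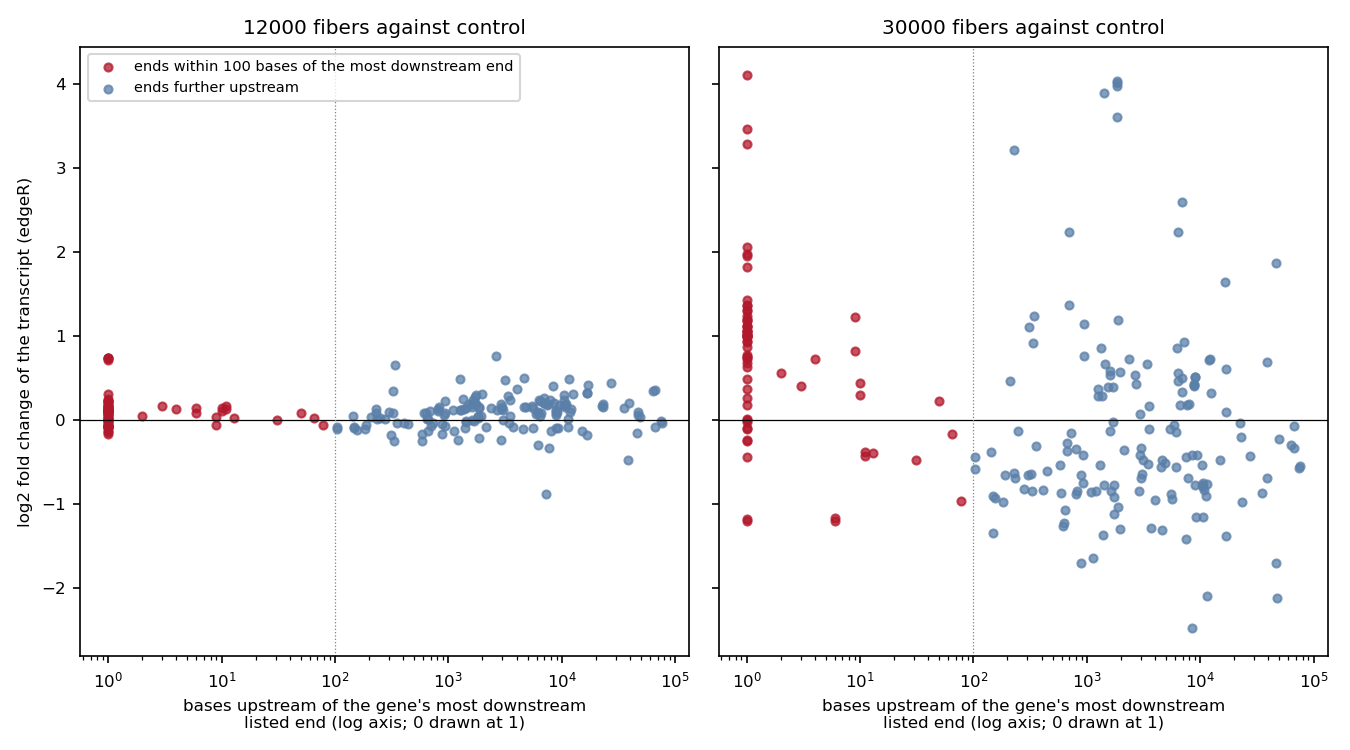
Log2 fold change (edgeR, vertical axis) of each transcript of the 38 members with isoforms of both kinds against the distance of its end from the gene's most downstream listed end in bases (log axis, 0 drawn at 1), at 12000 fibers (left) and 30000 fibers (right). Both kinds lie around 0 at 12000 fibers, while at 30000 fibers the downstream-ending transcripts (red) have a median of 0.80 and the others (blue) a median of -0.42.

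Member transcripts are short, and the 30000-fiber values changed with the way transcripts were counted. The median length was 1440 bases over members and 3165 over all tested genes with a length, and 73.3% of members against 24.5% of these genes were under 2000 bases. Among genes under 2000 bases the median log2 change at 30000 fibers was 0.60 for members and 0.43 for all, and from 2000 bases it was 0.47 for members and -0.12 for all. With each library's trend of level on length taken out, 18 members were higher and 12 lower at 30000 fibers, with a median of 0.11, where 30.8% of all genes were higher and 32.1% lower. With all transcripts of a gene summed, 29 were higher and 8 lower with a median of 0.40, where 32% of all genes were higher and 32.1% lower. All 18 members that were higher with the length trend taken out were also higher with transcripts summed and in the reported fit. Psma3, Psmb3, Psma5, Psmb5, Psmd8 and Psmg4 were among them. Of the members lower in the reported fit, Psmc1, Psmd2, Psmd3, Psmd13 and Psme2 stayed lower in both settings. At 12000 fibers the same settings gave 9 and 8 higher and 0 lower, where 19.7% and 17.3% of all genes were higher and 18.7% and 17.3% lower. Between the fiber numbers 16 were higher and 14 lower with the length trend taken out (26.2% and 25.4% of all genes), and 23 higher and 10 lower with transcripts summed (28.2% and 26.4%). When every transcript was tested separately and the most abundant of each gene was counted, 39 members were higher and 2 lower at 30000 fibers (50.1% and 17.5% of all genes), 36 and 3 between the fiber numbers (49.7% and 9.81%), and 7 and 0 at 12000 fibers (18% and 19.3%).

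**Figure D4:**
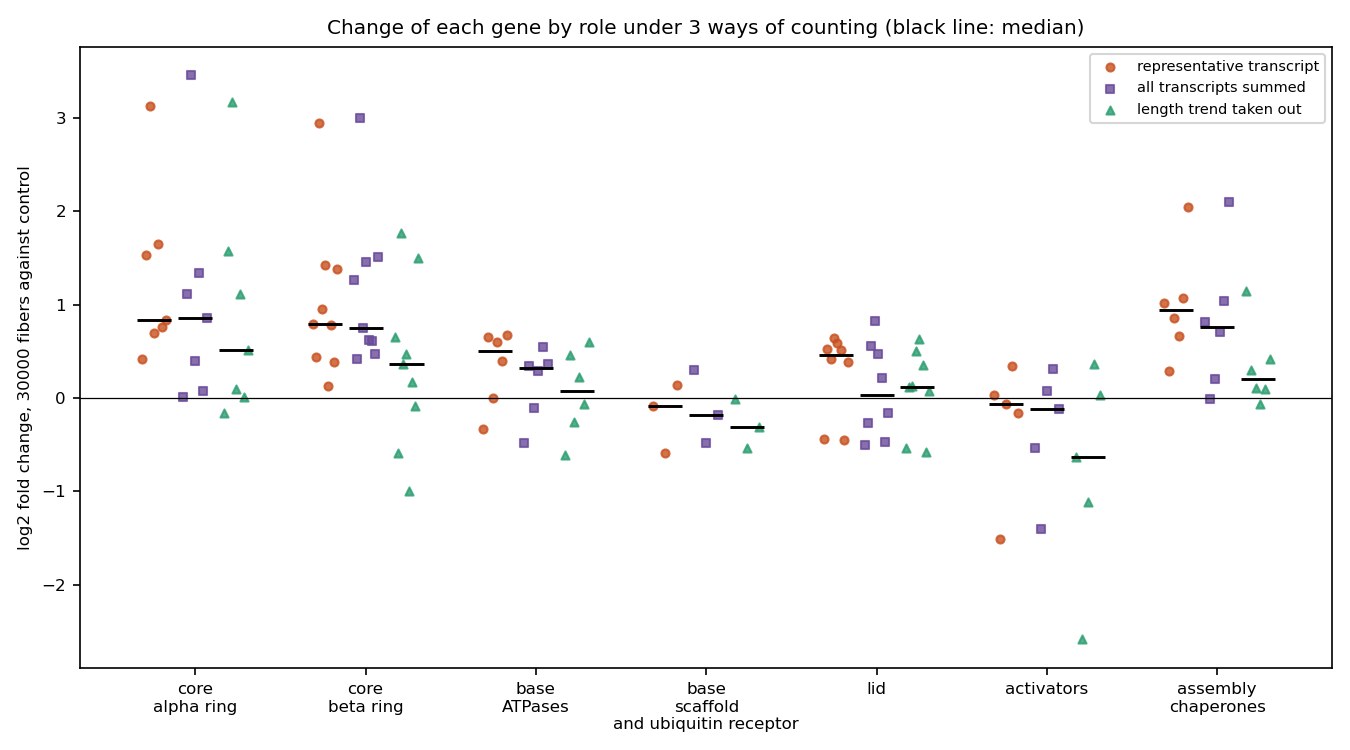
Log2 fold change at 30000 fibers against control (edgeR, vertical axis) of each member by role, with the most abundant transcript (circles), all transcripts summed (squares) and the length trend taken out (triangles); black lines are medians, and Psmc3ip is left out. The alpha ring, beta ring, ATPase, lid and chaperone medians stay above 0 in all 3, while the medians of the other base genes and of the activators stay below 0.

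Proteasome partners outside the symbol rule moved in both directions at 30000 fibers. Of 12 such genes 11 were tested (Paaf1 had no listed transcript). At 12000 fibers 2 rose, the inducible core gene Psmb8 (0.42 ± 0.10, edgeR adjusted p = 0.00369) and the cap deubiquitinase Usp14 (0.17 ± 0.06, 0.037), and 0 fell. Over all genes 18.7% were higher and 19.3% lower there. At 30000 fibers 3 of the 11 rose and 3 fell, near the shares of all genes (32.2% higher and 33.4% lower). The small lid subunit Sem1 rose from 71.6 ± 4.16 to 190.1 ± 8.30 CPM (log2 1.41 ± 0.06, edgeR adjusted p = 1.81e-13), followed by Akirin2, which carries proteasomes into the nucleus, and Pomp, which matures the beta ring (0.41 ± 0.10). Adrm1, a ubiquitin receptor of the cap, fell (-0.50 ± 0.12, edgeR adjusted p = 0.00139), as did Ecpas and Ube3c. Psmb9 had 0.03 ± 0.21 and 0.29 ± 0.25 at the 2 fiber numbers.

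Of 14 genes of ubiquitin supply and delivery, 6 rose and 0 fell at 12000 fibers, led by Nploc4, a cofactor of the segregase Vcp (0.33 ± 0.07, edgeR adjusted p = 0.000928), and the polyubiquitin gene Ubb (0.29 ± 0.07, 0.00296). Over all genes 18.7% were higher and 19.3% lower at that fiber number. At 30000 fibers 11 rose and 1 fell, Ubqln1, against 32.2% and 33.4% of all genes. Rps27a, which encodes ubiquitin fused to a ribosomal protein, rose by 4.08 ± 0.11, and Ubb by 1.48 ± 0.07. The counted Rps27a transcript is 565 bases long. Values with transcripts summed or the length trend taken out are given for members only, not for these genes or the partners above. The 4 genes of proteasome gene control did not move as a group. Nfe2l1 rose from 376 ± 36.0 to 494 ± 8.60 CPM at 12000 fibers (log2 0.39 ± 0.07, edgeR adjusted p = 0.000118) and was lower than control at 30000 (237 ± 9.88 CPM, log2 -0.67 ± 0.07, edgeR adjusted p = 7.29e-08). Ddi2, the protease that activates the Nfe2l1 protein, fell at both (-0.33 ± 0.08 and -0.58 ± 0.08). Syvn1 rose at 30000 fibers (0.30 ± 0.09) and Ngly1 passed in neither.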

How the data were processed

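RNA of 12 epithelial libraries (4 mice, 3 fiber numbers) was used. Libraries were made from 300 ng RNA and sequenced on a NextSeq 500 with stochastic barcodes, per the labels' protocols. The submitters' processing notes name bcl2fastq, FastQC, cutadapt 1.12, HISAT2 2.1.0 and the build mm10. The sources used here do not name the counting program, annotation release, strand setting or barcode use. Deposited were raw counts per Ensembl transcript, whole numbers that the authors had not normalized. Fibroblast columns hold 107814 entries but identifiers stand on 71081 only, so that fraction was not used. Depth ran from 6767842 to 31119155 counts over all transcripts, and 0 columns of per-sample values were left without a sample.

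For each gene, the transcript with the highest mean over the 12 libraries was taken. All 3 groups entered 1 fit of edgeR 4.0.16 (R 4.3.3) with filterByExpr, TMM and a robust quasi-likelihood F test on 9 residual degrees of freedom. P-values were adjusted by Benjamini-Hochberg over 13759 genes, with a threshold of 0.05. Standard errors came from the F statistic. CPM are counts per 1e6 of the TMM-scaled total. The script was tested on simulated data. Chi-square tests found no library that repeated another.

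The members and all lists were chosen with earlier results of these data known. Full statistics are given for the catalytic and inducible core genes, Psmd4, Psmd14 and Psme1 to Psme4, and for up to 2 largest rises and falls per role and comparison among members that passed with 1 direction in all 4 pairs of libraries from a mouse. Other members are given by range, count or value. The labels name 4 independent isolations from 4 mice, so same-numbered libraries share an animal. Deviations of same-numbered libraries correlated at r = -0.019 to 0.156 over 12 pairs of libraries. The mouse block was an alternative, as were DESeq2 1.42.0, library totals without TMM, no filter, summed transcripts, only the groups compared, a length trend taken out (lowess span 0.3), each library left out and, added after the data were seen, every transcript tested separately. Gene positions came from GENCODE M21 (GRCm38) and promoters from RefSeq (GRCm38.p6).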

Additional observations from a re-analysis of the deposited data

Results flagged for a closer look

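A sample was singled out when its gap to the nearest of the 4 libraries of its group exceeded 0.829 of the group's range (Dixon's 95% value). This held for 9 of 156 groups of values (5.77%), where chance gives about 1 in 20.

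At 30000 fibers, Psma3 was at 176 CPM in mouse 1 against 153 to 154 in the other libraries. Psmg1, an alpha ring chaperone, was at 11.4 CPM in mouse 1 against 20.0 to 21.5, near its control level. Psmd9, a base chaperone, was at 15.4 CPM in mouse 4 against 24.3 to 26.1, and without that library it passed as higher than control. In mouse 2, Psmd5 was at 79.7 CPM against 69.1 to 70.9 and Psmd6 at 85.0 CPM against 70.5 to 72.4. The thymic gene Psmb11 was at 6.18 CPM in mouse 3 against 3.01 to 3.53.

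At 12000 fibers, the base scaffold gene Psmd2 was at 197 CPM in mouse 4 against 223 to 228, and it passed as higher than control without that library. The summed base scaffold and ubiquitin receptor level of the same library was 467 CPM against 524 to 528. The summed alpha ring level was 443 CPM in mouse 1 against 423 to 424 in the others.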

How the results depend on the processing

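At 12000 fibers, the count of higher members was 5 to 12 and that of lower members 0 to 1 when 1 library was left out, the lower one being Psmb11 without the control library of mouse 2. The replicate block (mouse) gave 11 higher at 12000 fibers and 33 higher and 6 lower at 30000, the pairing thus adding Psmb3, Psmc3, Psmd4 and Psmd6 at 12000 and Psmd4 and Psmd9 at 30000, adding Psmc3 between the fiber numbers, and changing no other call but that of Psmc6.

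With library totals and no TMM, the members' median log2 change was 0.37 at 30000 fibers and 0.23 between the fiber numbers, where the median of all genes moved to -0.25 and -0.22, and Psme1 at 30000 fibers was -0.19. Sign changes below are those of members called in the reported fit or under the alternative. With transcripts summed these medians were 0.40 and 0.23, and the sign changed for Psmd1 (0.30), Psmd4 (-0.18), Psmd6 (-0.27), Psmd14 (-0.16) and Psme1 (-0.54) at 30000 fibers and for Psmd1 (0.069), Psmd6 (-0.50), Psmd14 (-0.26) and Psme1 (-0.43) between the fiber numbers. With the length trend taken out 18 members were higher and 12 lower at 30000 fibers (median 0.11), and 16 higher and 14 lower between the fiber numbers (median 0.10; 26.2% and 25.4% of all genes). Signs then changed for Psma1 (-0.16), Psmb2 (-0.58), Psmb6 (-0.99), Psmc5 (-0.067), Psmd4 (-0.31), Psme1 (-0.64), Psme4 (0.032) and Psmg2 (-0.068) at 30000 fibers, and for Psma1 (-0.056), Psma6 (-0.0087), Psmb2 (-0.59), Psmb6 (-0.98), Psmc5 (-0.39), Psmd6 (-0.062), Psmd14 (-0.028), Psme1 (-0.53) and Psmg2 (-0.13) between the fiber numbers. With every transcript tested separately, 39 members were higher and 2 lower at 30000 fibers (median 0.93; 50.1% and 17.5% of all genes) and 36 higher and 3 lower between the fiber numbers (median 0.78; 49.7% and 9.81%), where the median over representatives of all genes was 0.31 and 0.33. There Psmc1 (0.0050), Psmc3 (0.34), Psmd1 (0.26) and Psme4 (0.17) changed sign against control, and Psmd1 (0.037), Psmd4 (0.33), Psmd8 (0.27) and Psme4 (0.15) between the fiber numbers. The cause of these changes was not tested. Psmb10, Psmb11, Psme2b and the chaperones have low counts, which limits the precision of their values.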
